A study of Mus musculus with 13 samples.

Results

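The genes described here are those of 4 ligand and receptor systems of axon guidance, the semaphorins, ephrins, Slits and netrins with their receptors, in mouse basal cell carcinoma (BCC). They were chosen by gene symbol. Of 67 symbols of these families in the table, 66 had a value in all 13 tumors, among 16687 such genes in all, and Epha6 did not. They comprise 20 semaphorins with 9 plexins and 2 neuropilins, 8 ephrins with 13 Eph receptors, 3 Slits with 3 Robos, and 4 netrins with 4 Unc5 receptors. A test required a minimum of 10 counts in 4 or more tumors, and 58 of the 66 genes met this, among 14390 genes tested.

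The study asked how far a transplantable tumor, made for drug testing in an immunocompetent host, resembles the tumor it was made from. The 9 GEM-BCC tumors, intradermal, came from 7 female Ptch1+/- K14-CreER2 p53fl/fl mice (the Cre is CreERT2 in the study's methods), in which 3 injections of 300 µg tamoxifen activate Cre under the keratin 14 promoter in keratinocytes, together with a single X-ray dose of 4 Gy. A single mouse bore both GEM2 and GEM3, and another bore GEM7 with GEM8. The 4 subcutaneous Tp-BCC tumors grew in 4 female Ptch1+/-p53fl/fl mice, which carry no Cre, after inoculation of 2000000 cells. All 4 descend from 1 GEM-BCC tumor, so they sample 1 tumor lineage. The host cells of both models are Ptch1+/-. All GEM-BCC libraries were of batch 1 and all Tp-BCC libraries of batch 2, so batch and model cannot be told apart in any comparison below.

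Total expected counts were 28075317 to 32629102 in GEM-BCC, against 15388027 to 17494912 in Tp-BCC. The keratinocyte markers (Krt5, Krt14, Krt17, Trp63, Epcam, Gli1 and Ptch1) had a summed CPM (counts relative to library size) between 12037 and 17565 in GEM-BCC tumors and between 8578 and 20880 in Tp-BCC tumors, with none of the 7 past the test. Of the targeted genes, Trp53 was lower in Tp-BCC (log2 fold change −0.84 ± 0.23 SE, edgeR adjusted p = 0.0211) and Ptch1 did not pass (−0.87 ± 0.34, adjusted p = 0.0809). In the study's own DESeq2 test, Ptch1 was lower in Tp-BCC at an adjusted p under 0.05, with a fold change too small to be called there. The Tp-BCC tumors formed 2 pairs. Across all genes, levels relative to the mean rose with the GC content of the transcripts in TP2 and TP4 (Spearman's correlation 0.594 and 0.591) and fell with it in TP1 and TP3 (−0.389 and −0.473). In GEM1 it was 0.365, and in the other 8 GEM-BCC tumors −0.312 to −0.150. Guidance genes are GC-rich, with a median of 56.5% against 51.3% for all tested genes, so the values of TP1 to TP4 are given for the genes that are described.

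Guidance molecules steer the growing tips of axons and the movement of other cells. A ligand on or from 1 cell binds a receptor on another and changes its actin skeleton through small GTPases. Semaphorins bind plexins, with neuropilins as co-receptors for the secreted class 3. Ephrins bind Eph receptor tyrosine kinases at cell contacts. Slits bind Robos, and netrins bind Dcc, neogenin and Unc5 receptors. The same genes act in blood vessel growth and in the sorting of epithelial cells, in skin as elsewhere.

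Between the models, 12 guidance genes were higher in Tp-BCC at an adjusted p under 0.05 and 3 were lower. The 12 were the ligands Sema3g, Sema4c, Sema6a, Efna2, Ntn1 and Ntn5 and the receptors Plxna1, Plxnd1, Epha7, Epha8, Ephb2 and Unc5b. The 3 lower genes were the ligands Efna5, Ntn4 and Sema4f. Sema4f had at least 10 counts in GEM-BCC tumors only, so it could enter the test only by being higher there, and its call is not evidence of a difference. The share higher was 20.7% of the 58, beside 11.1% of all tested genes, and the share lower was 5.17%, beside 8.35%. Without Sema4f these shares were 21.1% and 3.51% of 57. In either direction 19.4% of all tested genes passed. The study's fold threshold, an absolute log2 fold change above 2, was set on shrunken DESeq2 values. It was applied here to edgeR values without that shrinkage. Past this threshold as well were Epha7, Epha8 and Sema3g, 5.26% of the 57 beside 5.57% of all. The fitted value of Sema4f was also past it, but its fold cannot be measured with so few counts. The models did not overlap in 7 of the 57 genes, 12.3% beside 9.95%: Efna2, Epha7, Epha8, Plxnd1, Sema3g, Sema6a and Unc5b. The median log2 fold change was 0.18 over the 58 and −0.03 over all tested genes. In bulk tumors, fewer cells of a type and less RNA per cell cannot be told apart.

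**Figure D1:**
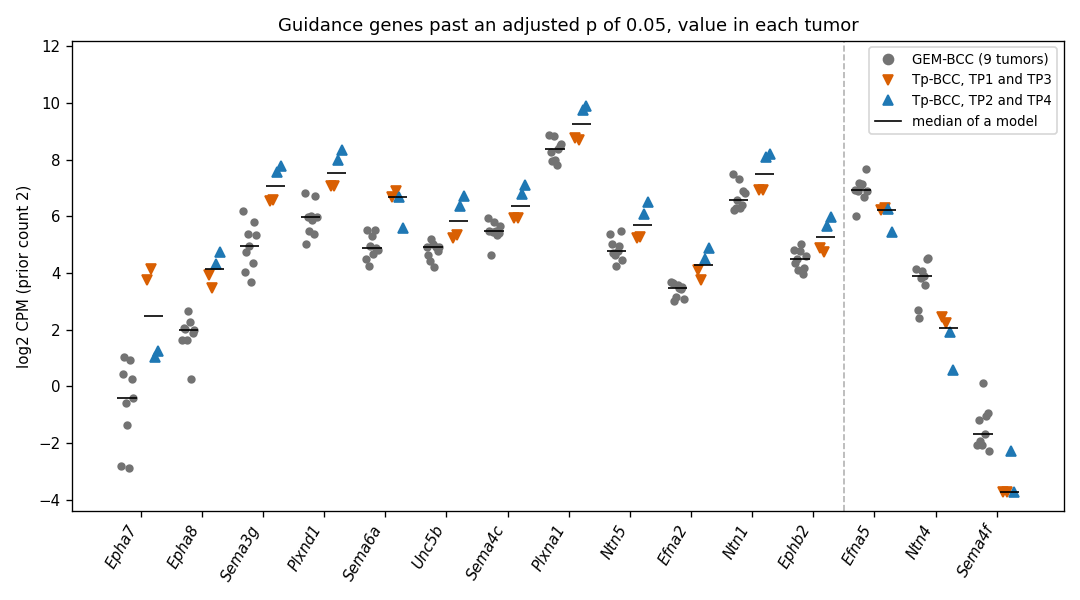
Level of the 15 guidance genes past an adjusted p of 0.05 in each of 13 tumors, as log2 CPM with a prior count of 2 (vertical axis), ordered by log2 fold change, with the 3 lower genes right of the dashed line. Gray circles are the 9 GEM-BCC tumors, orange triangles TP1 and TP3, blue triangles TP2 and TP4, and lines the median of each model. TP2 and TP4 are the highest 2 tumors in 10 of the 12 higher genes, while Epha7 has TP1 and TP3 on top (3.76 and 4.14 against 1.05 and 1.24). The 3 tumors of Sema4f at −3.73 have 0 counts.

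For the 4 genes below, the 250 bases before the RefSeq transcription start (GRCm38.p6) are printed, since Epha8, Sema3g and Epha7 were the 3 higher genes past the fold threshold and Ntn4 was the lower gene of largest fold among those with over 3 counts in Tp-BCC. Capitals mark GC boxes (GGGCGG or, on the other strand, CCGCCC, overlapping ones joined).
Epha8 (chr4:136956817-136957066, minus strand): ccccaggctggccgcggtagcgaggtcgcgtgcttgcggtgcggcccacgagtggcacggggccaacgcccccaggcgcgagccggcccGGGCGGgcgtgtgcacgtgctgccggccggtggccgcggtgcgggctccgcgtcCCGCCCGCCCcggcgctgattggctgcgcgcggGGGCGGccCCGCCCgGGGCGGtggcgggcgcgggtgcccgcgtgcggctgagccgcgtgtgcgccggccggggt
Sema3g (chr14:31217623-31217872, plus strand): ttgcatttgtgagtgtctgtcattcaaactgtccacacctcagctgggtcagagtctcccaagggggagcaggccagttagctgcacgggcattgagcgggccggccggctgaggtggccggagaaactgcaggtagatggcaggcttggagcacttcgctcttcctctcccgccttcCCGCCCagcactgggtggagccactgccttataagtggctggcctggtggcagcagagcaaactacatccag
Epha7 (chr4:28812881-28813130, plus strand): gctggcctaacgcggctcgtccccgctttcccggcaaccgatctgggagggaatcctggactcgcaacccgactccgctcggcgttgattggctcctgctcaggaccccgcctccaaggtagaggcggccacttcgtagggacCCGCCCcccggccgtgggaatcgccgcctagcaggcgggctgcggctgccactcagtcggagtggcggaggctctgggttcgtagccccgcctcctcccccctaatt
Ntn4 (chr10:93640799-93641048, plus strand): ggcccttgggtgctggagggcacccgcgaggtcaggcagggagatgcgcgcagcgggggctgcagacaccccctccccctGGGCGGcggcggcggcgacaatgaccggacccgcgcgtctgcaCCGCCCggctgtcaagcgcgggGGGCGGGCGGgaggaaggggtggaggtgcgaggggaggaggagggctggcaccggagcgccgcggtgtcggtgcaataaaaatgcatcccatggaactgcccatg
The GC content of these windows was 84.0% for Epha8, 60.4% for Sema3g, 69.2% for Epha7 and 73.2% for Ntn4, with 46, 8, 25 and 26 CpG dinucleotides and 6, 1, 1 and 4 GC boxes. TATAAA and the Gli motif GACCACCCA, searched on both strands, were in none of the 4. A promoter was found for 57 of the 66 genes. A GC box was in 42 of them (73.7%), beside 32.9% of all 27025 promoters of the table and 53.7% of the 13211 whose gene had a value in all 13 tumors. TATAAA was in those of Efnb2 and Slit2 only, beside 7.76% of the 13211 promoters. The Gli motif was in none, beside 0.211% of all. These are letter matches in 1 window per gene, without any measure of binding.

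Of the 20 semaphorins, 3 were higher in Tp-BCC, 1 was lower and 16 did not pass. Sema3g is a secreted class 3 semaphorin, made by endothelium among others, that signals through neuropilin 2. Its log2 CPM was 6.52, 7.58, 6.58 and 7.79 in TP1 to TP4, and 3.70 at the lowest, 4.96 at the median and 6.19 at the highest of the GEM-BCC tumors. All 4 Tp-BCC tumors lay above all 9 GEM-BCC tumors, the nearest being TP1 at 6.52 and GEM1 at 6.19. The fitted difference between the models was 4.22-fold (log2 fold change 2.08 ± 0.39 SE, adjusted p = 0.00214). With TP2 and TP4 left out it was 1.41 and did not pass (adjusted p = 0.0676). Sema6a, a transmembrane semaphorin that binds plexins A2 and A4, was at 6.68, 6.67, 6.91 and 5.60 in TP1 to TP4 and at 4.26, 4.87 and 5.51 in GEM-BCC (lowest, median, highest). Here the models were also separate, narrowly so for TP4 against GEM2 at 5.51, and the difference was 2.93-fold (1.55 ± 0.26, adjusted p = 0.000967). Sema6a was the only semaphorin of the 3 in which TP2 and TP4 were not both above TP1 and TP3.

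Sema4c, a transmembrane ligand of plexin B2, was at 5.93, 6.78, 5.96 and 7.10 in Tp-BCC and at 4.64, 5.47 and 5.95 in GEM-BCC (lowest, median, highest). TP1 thus lay within the GEM-BCC range and TP3 just above it (2.04-fold, log2 fold change 1.03 ± 0.25, adjusted p = 0.00989). Without TP4 the call was lost. Sema4f, a transmembrane class 4 semaphorin, was near the limit of detection, with 4 to 35 counts in GEM-BCC tumors and 0, 2, 0 and 0 in TP1 to TP4. With 3 counts taken per Tp-BCC library, its mean level was at least 1.81-fold lower in Tp-BCC, but the 35 counts were those of GEM5. GEM1, GEM4 and GEM9 had only 5, 5 and 4. The bound, like the call, is not evidence of a difference.

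Sema5a and Sema4a, the semaphorins of highest CPM, did not pass. Sema5a, which has thrombospondin repeats, reached a mean of 365 ± 120 CPM (SD, n = 9) in GEM-BCC and 205 ± 96.0 (n = 4) in Tp-BCC. Its log2 CPM in TP1 to TP4 was 8.11, 7.26, 8.20 and 6.59, and only TP2 and TP4 lay below the lowest GEM-BCC tumor (7.77; adjusted p = 0.0839). Sema4a, a transmembrane semaphorin known from immune cells, was at 122 ± 44.0 and 197 ± 71.0 CPM, with 7.13, 7.94, 7.06 and 8.08 log2 CPM in TP1 to TP4 against 6.17 to 7.55 in GEM-BCC (adjusted p = 0.102). The secreted Sema3c, the transmembrane Sema6d and Sema3e, a secreted ligand of plexin D1, were spread widely within a model. Sema3c was at 6.13 and 6.55 in TP1 and TP3, within the GEM-BCC range of 5.69 to 7.34, and at 3.51 and 3.89 in TP2 and TP4, below it. Sema6d was at 4.73 and 4.70 in TP1 and TP3, at 3.35 in TP2 and at 1.97 in TP4, against 2.67 to 4.05 in GEM-BCC. Sema3e ranged from 2.24 in GEM3 to 6.10 in GEM8, and from 2.24 to 5.01 in Tp-BCC. The log2 fold changes of the 16 that did not pass ran from −0.99 to 0.76.

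**Figure D2:**
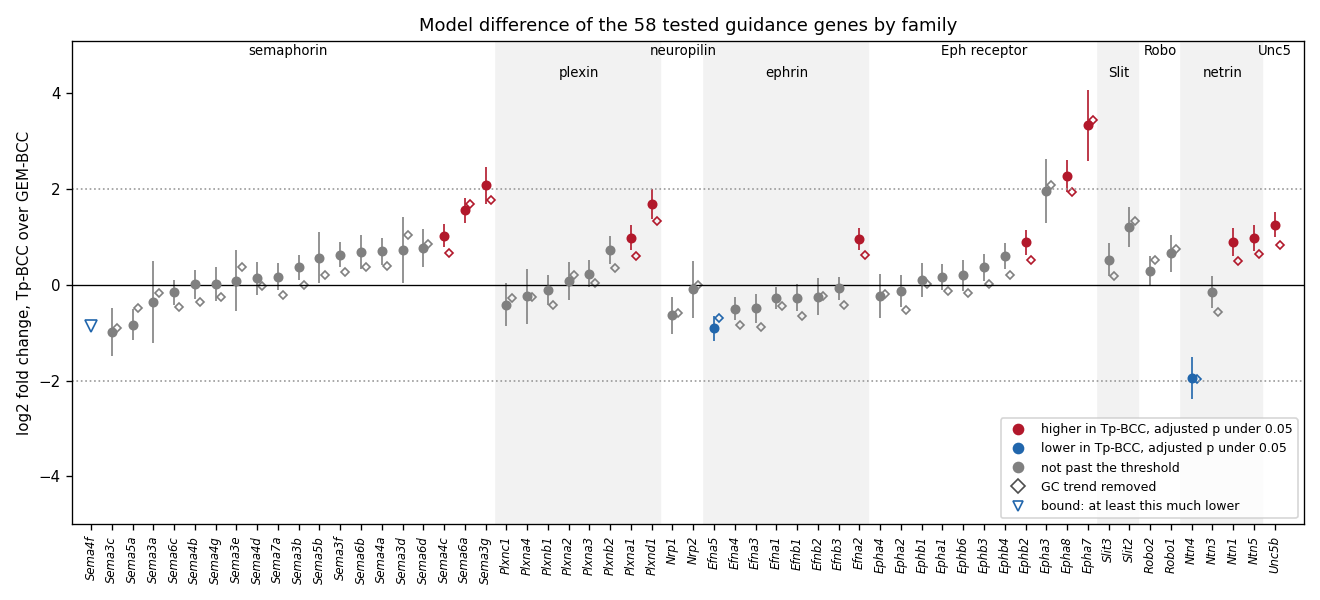
Log2 fold change of Tp-BCC over GEM-BCC (vertical axis) for the 58 tested guidance genes, grouped by family. Filled circles with bars are the estimates ± SE, red for genes higher and blue for genes lower at an adjusted p under 0.05, and gray for the rest. Open diamonds are the estimates after the GC trend of each tumor was removed. The open triangle is the bound for Sema4f (at least 1.81-fold lower), which is not evidence of a difference. Dotted lines mark an absolute log2 fold change of 2. Epha7 is at 3.33, and 7 of the 8 ephrins lie below 0.

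The plexins are the signaling receptors of semaphorins, and 2 of 8 tested were higher in Tp-BCC. Plxnd1, the receptor of Sema3e and known for its part in vessel patterning, was at 7.06, 7.97, 7.06 and 8.33 in TP1 to TP4. In GEM-BCC it was at 5.03 at the lowest, 5.97 at the median and 6.82 at the highest, so that the models did not overlap (3.23-fold, log2 fold change 1.69 ± 0.32, adjusted p = 0.00223). With TP2 and TP4 left out it was 1.04 and did not pass (adjusted p = 0.0763). Plxna1, a plexin that pairs with neuropilins, was at 8.78, 9.75, 8.68 and 9.90 in Tp-BCC and 7.80, 8.39 and 8.87 in GEM-BCC, so only TP2 and TP4 lay above all GEM-BCC tumors (1.98-fold, 0.98 ± 0.26, adjusted p = 0.0172). Its call was lost without TP2 and without TP4. Plxnb2, the receptor of Sema4c, was at 361 ± 115 CPM in GEM-BCC and 596 ± 275 in Tp-BCC, with 8.51, 9.54, 8.52 and 9.83 log2 CPM in TP1 to TP4 against 7.98 to 9.25 in GEM-BCC (adjusted p = 0.0856). Plxna4 ranged from 0.38 in GEM6 to 4.20 in GEM4, with TP1 to TP3 at 2.72 to 2.93 and TP4 at 1.65. Plxnb3 was not tested, with 0 to 7 counts.

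The neuropilins, co-receptors of class 3 semaphorins and of VEGF, did not differ past the threshold, and their spread was of opposite kinds. Nrp2 covered 4.18 in GEM3 to 8.16 in GEM2 among GEM-BCC tumors, 2 tumors of the same mouse, and 6.47 to 7.25 in Tp-BCC (SD 1.47 and 0.32). GEM7 at 7.90 and GEM8 at 5.06 also shared a mouse. Nrp1 ran from 4.04 to 5.71 in GEM-BCC and was at 4.72, 3.55, 5.06 and 2.75 in TP1 to TP4 (SD 0.51 and 1.07). The log2 fold changes were −0.10 ± 0.60 for Nrp2 and −0.64 ± 0.39 for Nrp1 (adjusted p = 0.926 and 0.263).

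Of the 8 ephrins, 1 was higher and 1 lower, and 7 had a negative log2 fold change. Efna2, a lipid-anchored ligand of EphA receptors, was at 4.09, 4.50, 3.74 and 4.89 in TP1 to TP4 and at 3.00, 3.47 and 3.70 in GEM-BCC. TP3 lay just above GEM1, the highest GEM-BCC tumor (1.94-fold, log2 fold change 0.96 ± 0.23, adjusted p = 0.0106), and without TP4 the call was lost. Efna5, of the same class, went the other way, at 6.21, 6.25, 6.29 and 5.46 in Tp-BCC and 6.02, 6.92 and 7.65 in GEM-BCC. GEM2, at 6.02, was the 1 GEM-BCC tumor within the Tp-BCC range (1.88-fold lower, −0.91 ± 0.26, adjusted p = 0.0241), and the call was lost without TP2 and without TP4. Efnb1, the most abundant ephrin by CPM and a transmembrane ligand of EphB receptors, was at 196 ± 52.8 CPM in GEM-BCC and 163 ± 76.1 in Tp-BCC (6.75, 7.53, 6.63 and 8.03 log2 CPM in TP1 to TP4). Efna1 was at 140 ± 30.9 and 115 ± 36.4 CPM (6.37, 7.29, 6.44 and 7.08 log2 CPM). Neither passed (adjusted p = 0.529 and 0.409). Per kilobase of its longest protein-coding transcript, Efna1 had the highest mean level of the 66 genes in GEM-BCC, 85.7 ± 18.9 CPM per kb, followed by Epha1 (64.0 ± 18.8) and Slit3 (61.3 ± 26.3). In Tp-BCC Plxnb2 (91.8 ± 42.3) and Slit3 (88.4 ± 33.5) led, and Efna1 was at 70.7 ± 22.3. Except for Efna1 against Epha1 in GEM-BCC, neighbors in these orders differed by less than their SDs.

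The Eph receptors held the largest positive fold changes. Of 11 tested, 3 were higher in Tp-BCC and 8 did not pass. Epha8, a receptor of A-type ephrins known from the nervous system, had 3.94, 4.31, 3.46 and 4.74 log2 CPM in TP1 to TP4. GEM-BCC tumors were at 0.25 in GEM7, at 2.00 at the median and at 2.64 in GEM5. Every Tp-BCC tumor was thus above every GEM-BCC tumor (4.84-fold, log2 fold change 2.27 ± 0.34, adjusted p = 0.000363), and the call was kept with TP2 and TP4 left out (log2 fold change 1.80) and with TP1 and TP3 left out (2.63). Epha7, likewise an A-type receptor, was low in GEM-BCC, at −2.89, −0.41 and 1.03 (lowest, median, highest; 2 to 62 counts), and at 3.76, 1.05, 4.14 and 1.24 in Tp-BCC (229, 31, 293 and 32 counts). TP2 lay just above GEM3, the highest GEM-BCC tumor. The difference was 10.1-fold (3.33 ± 0.74, adjusted p = 0.00651), but with TP1 and TP3 left out it was 1.29 on the log2 scale and did not pass (adjusted p = 0.259).

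Epha3 showed the same order among Tp-BCC tumors, at 3.46, 0.58, 3.58 and 1.28, against −2.27 to 2.31 in GEM-BCC, and was just outside the threshold (log2 fold change 1.96 ± 0.67, adjusted p = 0.0502). Ephb2, a receptor of B-type ephrins, was at 4.89, 5.65, 4.75 and 5.98 in Tp-BCC and 3.98, 4.49 and 5.02 in GEM-BCC. TP1 and TP3 lay within the GEM-BCC range (1.85-fold, 0.89 ± 0.26, adjusted p = 0.0247), and the call was lost without TP2, without TP4 and with counts summed per mouse. The abundant receptors did not pass. Ephb3 was at 277 ± 72.2 CPM in GEM-BCC and 356 ± 172 in Tp-BCC, at 7.69, 8.78, 7.79 and 9.13 log2 CPM in TP1 to TP4 (adjusted p = 0.379). Epha1 was at 210 ± 61.4 and 235 ± 91.5 CPM, at 7.37, 8.22, 7.22 and 8.37 log2 CPM in TP1 to TP4 (adjusted p = 0.694). Epha4, which binds ephrins of both classes, was at 6.83 and 6.86 in TP1 and TP3, at 5.45 in TP2 and at 3.86 in TP4, and at 5.32 to 7.64 in GEM-BCC, the highest being GEM9. Epha5 had no count in GEM-BCC and at most 1 in Tp-BCC, and Epha10 had 0 to 35 counts in GEM-BCC and at most 1 in Tp-BCC. Neither was tested.

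Neither the 2 tested Slits nor the 2 tested Robos passed. Slit2 was just outside, with 7.06, 6.29, 6.95 and 4.59 log2 CPM in TP1 to TP4 and 3.94, 5.32 and 6.13 in GEM-BCC (log2 fold change 1.21 ± 0.42, adjusted p = 0.0565). TP1 to TP3 lay above all GEM-BCC tumors and TP4 below their median. Slit3 was at 320 ± 137 CPM in GEM-BCC and 462 ± 175 in Tp-BCC, at 8.27, 9.32, 8.30 and 9.20 log2 CPM in TP1 to TP4 (adjusted p = 0.301). Robo1, a Slit receptor, was at 5.87, 5.47, 5.85 and 3.81, and GEM1, at 5.93, lay above all of these. Robo2, the other main Slit receptor here, was nearly the same in all GEM-BCC tumors, at 6.03 to 6.36 (SD 0.10, n = 9). In Tp-BCC it was at 6.93 and 7.28 in TP1 and TP3, above all of them, and at 5.85 and 4.73 in TP2 and TP4, below all of them. Its log2 fold change over all tumors was 0.29 ± 0.31 (adjusted p = 0.529). It was 0.91 with TP2 and TP4 left out (adjusted p = 0.00276) and −0.80 with TP1 and TP3 left out (adjusted p = 0.0209). Slit1, with 3 to 16 counts, and Robo3, with at most 4, were not tested.

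Of the 4 netrins, 2 were higher and 1 lower in Tp-BCC. Ntn1, the classical netrin, was at 6.92, 8.08, 6.93 and 8.20 in TP1 to TP4 and 6.23, 6.57 and 7.49 in GEM-BCC (1.85-fold, log2 fold change 0.89 ± 0.30). Only TP2 and TP4 lay above the GEM-BCC range. Its adjusted p was 0.0465 and ran from 0.0261 to 0.215 with 1 tumor left out. Ntn5 was at 5.22, 6.08, 5.28 and 6.52 in Tp-BCC and 4.25, 4.76 and 5.47 in GEM-BCC (1.97-fold, 0.98 ± 0.27, adjusted p = 0.0204). TP1 and TP3 lay within the GEM-BCC range, and without TP2 or TP4 the call was lost. Ntn4, a netrin of basement membranes that binds laminins, fell. It was at 2.46, 1.90, 2.25 and 0.59 in TP1 to TP4 and at 2.42 at the lowest, 3.89 at the median and 4.53 at the highest of GEM-BCC. Only TP1 reached the GEM-BCC range, at its lower end beside GEM3 (3.85-fold lower, −1.95 ± 0.45, adjusted p = 0.00767). With TP2 and TP4 left out it was −1.54 and did not pass (adjusted p = 0.0749). Ntn3, at 35.4 ± 12.4 and 31.9 ± 17.2 CPM and with 4.32, 5.26, 4.01 and 5.74 log2 CPM in TP1 to TP4, did not pass (adjusted p = 0.772).

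Of the netrin receptors of the Unc5 family only Unc5b was tested. It is known from tip cells of growing vessels, and it was at 5.23, 6.36, 5.34 and 6.73 in TP1 to TP4 and at 4.22, 4.90 and 5.19 in GEM-BCC. The models did not overlap, with TP1 just above GEM4 (2.38-fold, log2 fold change 1.25 ± 0.26, adjusted p = 0.0043). With TP2 and TP4 left out it was 0.48 and did not pass (adjusted p = 0.196), and with the GC trend of each tumor removed it was 0.83. Unc5a (0 to 14 counts), Unc5c (0 to 74 counts, the highest in GEM2) and Unc5d (0 to 17 counts) were not tested. In Tp-BCC no Unc5c or Unc5d count exceeded 1.

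The 4 Tp-BCC tumors split the guidance genes in a way that followed GC content. TP2 and TP4 were both above TP1 and TP3 in 36 of the 58 tested genes, whose transcripts had a median GC content of 57.7%. They were both below in 17, with a median of 48.7%, and the other 5 were mixed. Across the 58 genes, which share the same 4 libraries, Pearson's r between GC content and the difference of the pairs was 0.88 and Spearman's correlation was 0.73. The widest differences were those of Epha7 (−2.81), Sema3c (−2.63) and Epha3 (−2.59 on the log2 scale), genes with 42.3%, 43.5% and 45.9% GC. The summed keratinocyte markers split likewise, at 9200 and 8578 CPM in TP1 and TP3 and 16343 and 20880 in TP2 and TP4.

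**Figure D3:**
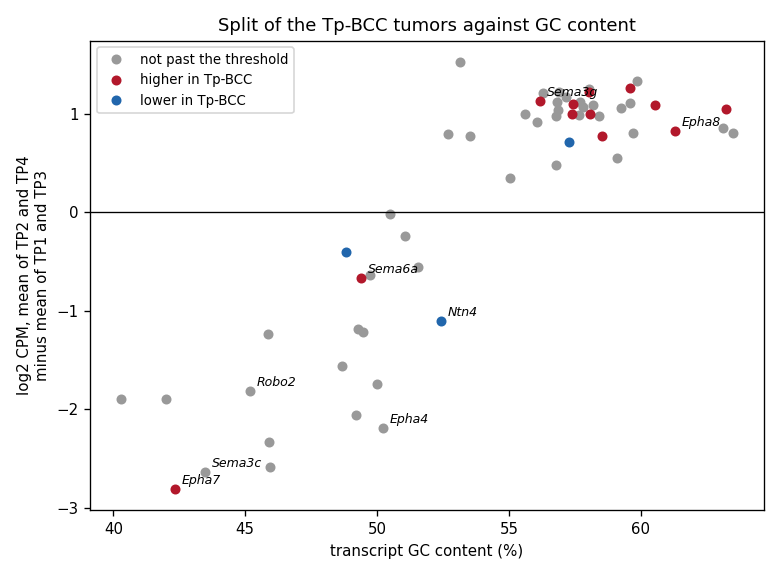
Mean log2 CPM of TP2 and TP4 minus that of TP1 and TP3 (vertical axis) against transcript GC content in percent (horizontal axis), 1 point for each of the 58 tested guidance genes. Red points were higher and blue points lower in Tp-BCC at an adjusted p under 0.05. Points rise from −2.81 for Epha7 at 42.3% GC to values near 1 above 55% GC, with Pearson's r of 0.88 across genes.

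With the GC trend of each tumor removed, 14 of the 58 guidance genes were higher and 7 of the 58 lower, beside 15.1% and 13.3% of all tested genes. The 14 were the 12 above without Ntn1, with Epha3, Slit2 and Robo2 added. The 7 were Efna5, Ntn4 and Sema4f with Efna3, Efna4, Efnb1 and Efnb3, so that 5 of the 8 ephrins were lower, with a median of −0.55 over the family. Sema4f entered this test too only through its GEM-BCC counts, and its call is not evidence of a difference. Efna4 then had a log2 fold change of −0.84 (adjusted p = 0.00103) and Efna3 of −0.88 (0.0117). Sema3g, at 1.76, and Epha8, at 1.93, were then under the fold threshold of 2, and Epha3, at 2.09, was past it. Epha7 stayed past it at 3.44. Plxnd1 was at 1.33, Sema6a at 1.70 and Ntn4 at −1.96. The median over the 58 was 0.02, beside −0.02 for all tested genes. In Robo2 (log2 fold change 0.52, adjusted p = 0.0170) the Tp-BCC values became 6.06 to 6.86 against 5.80 to 6.36 in GEM-BCC. The models overlapped, as they had before the removal. The removal was partial, since Pearson's r between GC content and the difference of the pairs was still 0.52.

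The removal also changed which model varied more. The median SD of a guidance gene was 0.52 among GEM-BCC tumors and 0.65 among Tp-BCC tumors, and the GEM-BCC SD was the larger in 16 of 58 genes. With the trend removed it was 0.53 and 0.21, and the GEM-BCC SD was the larger in 49 of 58. Over all tested genes these shares were 37.2% and 58.8%. Within Tp-BCC, TP1 and TP3 differed by a median of 0.11 over the 58 genes and TP3 and TP4 by 1.27, and with the trend removed by 0.11 and 0.37.

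Among the GEM-BCC tumors, GEM3 was the lowest in 23 of the 58 genes, also with the GC trend removed, while it was the lowest in 20.8% of all tested genes. GEM1 was the highest in 19, and in 8 with the GC trend removed, beside 17.6% and 14.4% of all tested genes. Tumors of 1 mouse differed by amounts within the range of the other pairs. The median absolute difference over the 58 genes was 0.57 between GEM2 and GEM3 and 0.40 between GEM7 and GEM8, and 0.27 to 0.90 with a median of 0.52 between the other 34 pairs. In both same-mouse pairs the gene that differed most was Nrp2, by 3.98 and 2.84 on the log2 scale. Plxna4, Sema3e and Nrp2 were the genes of largest SD in GEM-BCC among those of a mean log2 CPM of at least 1, at 1.22, 1.14 and 1.47.

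**Figure D4:**
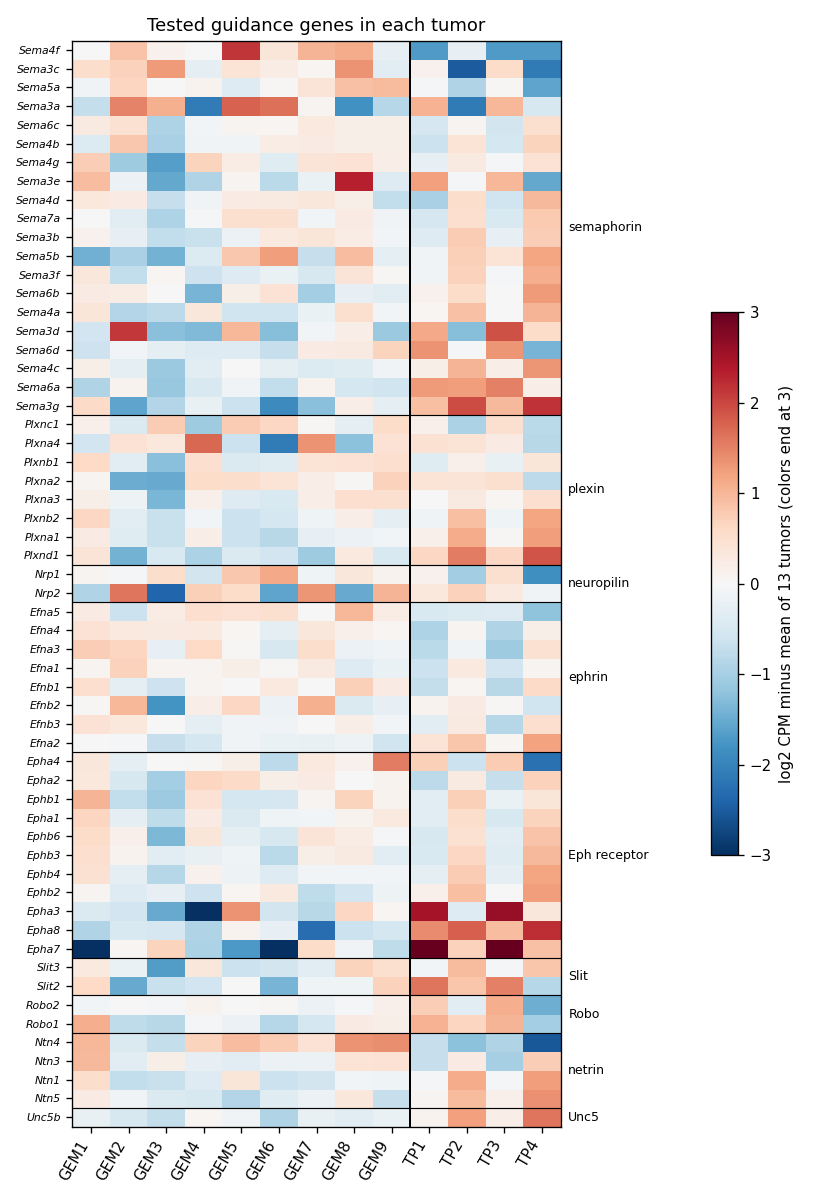
Log2 CPM of each tested guidance gene minus its mean over 13 tumors (color, red above and blue below the mean), with tumors in columns and the 58 genes in rows by family. The vertical line separates 9 GEM-BCC tumors from 4 Tp-BCC tumors. GEM3 is the lowest GEM-BCC tumor in 23 genes, and TP1 with TP3 and TP2 with TP4 form pairs.

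Co-receptors and cytoplasmic effectors of these systems were read from the same fit, as a list of 101 genes written from general knowledge. Of 99 tested, 16 were higher (16.2%, beside 11.1% of all tested genes) and 7 lower (7.07%, beside 8.35%) in Tp-BCC, with a median log2 fold change of −0.03. With the GC trend removed, 17 of the 99 were higher and 12 lower, beside 15.1% and 13.3% of all tested genes. The 8 of smallest p were Chn1, Limk1, Ablim3, Crmp1, Cntn2, Ngef, Ntng2 and Robo4. Chn1, chimaerin, a Rac-inactivating protein downstream of Eph receptors, was at 3.96 to 5.49 in Tp-BCC and −0.13 to 2.14 in GEM-BCC (log2 fold change 3.84 ± 0.38). Limk1, the kinase that inactivates cofilin, was at 5.94 to 7.32 and 4.38 to 5.58 (1.84 ± 0.26). Ablim3, an actin-binding protein, was at 5.75 to 6.34 and 1.85 to 4.72 (2.50 ± 0.40). These 3 did not overlap between models, nor did Crmp1, Cntn2, Robo4 and Ngef among the 8, which were picked by smallest p. Over all tested genes, 9.95% did not overlap. Ngef, ephexin, an exchange factor that binds EphA receptors, was the 1 of the 8 that was lower, at 0.02 to 0.84 in Tp-BCC and 2.05 to 4.44 in GEM-BCC (−2.75 ± 0.56). The log2 fold changes of Crmp1, a mediator of semaphorin signaling, and of the adhesion molecule Cntn2 were 2.54 and 2.80, and those of Ntng2, a membrane-anchored netrin relative, and of Robo4, the endothelial Robo, 1.36 and 1.35. Neogenin (Neo1), a netrin receptor, was at −0.98 ± 0.36 and did not pass, nor did Rhoa (0.12 ± 0.18).

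Of the genes higher in Tp-BCC, Sema3g, Plxnd1, Unc5b and Robo4 are known from blood vessels, and endothelial markers were measured beside them. Other genes with a part in vessels did not pass. Their log2 fold changes were −0.64 for Nrp1, −0.10 for Nrp2, −0.25 for Efnb2, 0.60 for Ephb4 and −0.08 for Vegfa. The 11 markers summed to 129 to 323 CPM in GEM-BCC and 409 to 529 CPM in Tp-BCC, without overlap. Of the 11, 5 (Cdh5, Kdr, Tie1, Emcn and Esam) were higher in Tp-BCC, beside 11.1% of all tested genes. Without Kdr, which is also a partner of these receptors, the sums were 120 to 302 and 355 to 472. Pecam1, Erg, Tek, Vwf, Egfl7 and Cldn5 did not pass (log2 fold change 0.12, 0.00, 0.52, 0.59, 0.63 and 0.98). None of the 11 was at 0 in all tumors. The part of endothelium in these results was not tested. Neuronal markers were lower in sum, 7.71 to 37.8 CPM in GEM-BCC, against 2.28 to 5.42 in Tp-BCC, and only Rbfox3 passed, with between 165 and 1111 counts in GEM-BCC tumors, where it was the most abundant of the list, and between 14 and 20 in Tp-BCC tumors. Of the other 4, Tubb3 and Syt1 did not pass (log2 fold change −0.26 and 0.80) and Snap25 and Nefl had at most 3 counts. Schwann cell markers overlapped, at 31.4 to 193 and 40.6 to 58.1 CPM. Macrophage markers summed to 46.1 to 220 and 143 to 249 CPM and fibroblast markers to 12062 to 49100 and 15693 to 28341 CPM. Adipocyte markers were at 0.371 to 3.23 CPM in GEM-BCC, against 9.30 to 61.1 in Tp-BCC, and skeletal muscle markers at 0.411 to 1.05 and 1.77 to 104, the highest in TP4. The part of these cells was not tested.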

How the data were processed

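RNA of 13 tumors was sequenced with 1 library each after poly(A) selection. The deposited table holds expected counts per gene. The authors aligned cleaned reads to GRCm39 with Bowtie2 2.3.4.3 and quantified them with RSEM 1.3.1, with a strand setting. Why some genes lack values is not given in the sources used here. Of 21100 genes, 16687 were listed for every tumor and kept, and expected counts were rounded.

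Models were compared over 14390 genes reaching 10 counts in 4 tumors or more by edgeR 4.0.16 in R 4.3.3 (TMM, robust quasi-likelihood F test, 2-sided, no covariate), with Benjamini-Hochberg adjustment over all of them. The SE is the size of the log2 fold change divided by the square root of F. Where a model had at most 3 counts in every tumor, a bound with 3 counts replaced the fold. Log2 CPM used a prior count of 2. Precision is limited by 4 Tp-BCC tumors of lower depth. Tumors of 1 mouse or 1 lineage are not independent, while the test treats all tumors as independent. The p-values can therefore be too small, and they do not extend to other lineages.

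GC content is the median over protein-coding transcripts in GENCODE vM21, and length that of the longest, matched by symbol for 14095 tested genes. Its trend in each tumor was smoothed (lowess, span 0.3) and entered as offsets. Guidance genes are named if past the threshold, if among the 2 of highest CPM of a family, or if among the 3 of largest SD in a model, and partners if among the 8 of smallest p. Others (Epha3, Neo1, Rhoa, Efnb2, Ephb4, Vegfa and the genes added with the GC trend removed) were chosen after their values were seen. The members and lists were chosen with earlier results of these data known. The procedure was tested on simulated counts of independent tumors, without a GC trend, shared mice, a shared lineage or batches. That test therefore does not cover these features of the data. Alternatives were DESeq2 1.42.0, other scalings and filters, sums of counts per mouse, each tumor left out, a replicate block, GC correction and missing values as 0. Leaving out pairs of tumors was added after the data were seen. The replicate numbers of the models do not pair tumors.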

Additional observations from a re-analysis of the deposited data

Results flagged for a closer look

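For the 33 guidance genes named, each model was searched for a tumor that stands apart, by the gap to its nearest neighbor divided by the range of the model (Dixon's ratio). Of 66 such groups 6 passed the 95% critical value, and chance alone flags about 1 in 20. In Tp-BCC, TP4 stood apart as the lowest in Efna5 (5.46 log2 CPM, ratio 0.907) and in Plxna4 (1.65, ratio 0.839). TP2 stood apart in Sema4f (ratio 1.00), where it had 2 counts and the other 3 tumors 0. In GEM-BCC, GEM7 was the lowest in Epha8 (0.25 log2 CPM, ratio 0.578) and GEM3 in Sema4c (4.64, ratio 0.548), and GEM9 was the highest in Epha4 (7.64, ratio 0.513).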

How the results depend on the processing

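Of the 15 guidance genes past the threshold, Epha7, Epha8, Ntn4, Plxnd1, Sema3g, Sema6a and Unc5b passed with each of the 13 tumors left out in turn. Without TP4, 8 of the 15 did not pass, and without TP2, 5 did not. Below, genes in all are counted past both the adjusted p and the fold threshold (801 with all tumors). Guidance genes higher or lower, and partners, are counted at the adjusted p alone. With 1 tumor left out, 8 to 14 guidance genes were higher, 2 to 3 lower and 1 to 4 past the fold threshold as well (1 without TP4). Of all genes, 594 to 853 were past both thresholds. Partners past the adjusted p numbered 10 to 25 (10 without TP2 and without TP4, 23 with all tumors). The replicate block (the tumor number, GEM1 to GEM4 against TP1 to TP4) left 0 guidance genes higher, 0 lower and 0 past the fold threshold, with 179 genes in all and 1 partner, and 0.50 for Nrp2. It used 8 tumors, and deviations of same-numbered tumors did not correlate positively (r −0.381 to −0.101), so the numbers do not pair them. With TP2 and TP4 left out, 7 guidance genes were higher, 478 genes were called in all and 8 partners passed, and 11 of the 15 did not pass. Epha7, Epha8 and Sema6a did, and so did Sema4f, whose call is not evidence of a difference. The direction turned for Ephb3 (−0.37), Epha1 (−0.41), Slit3 (−0.035) and Epha4 (0.45). With GEM1 also left out, 472 genes in all were past both thresholds and 9 partners passed the adjusted p. Ephb3 was then at −0.28, Epha1 at −0.31 and Epha4 at 0.45. With TP1 and TP3 left out, 17 guidance genes were higher and 7 lower, and 48 partners passed, all at the adjusted p alone. Genes in all past both thresholds numbered 1850. Epha7 and Sema4f did not pass, and the direction turned for Efnb1 (0.19), Efna1 (0.066), Robo2 (−0.80), Sema3e (−1.01) and Sema6d (−0.48). With the GC trend removed, 7 genes were lower and Epha1 was at −0.12. The cause of these changes was not tested. A fold threshold of 1 gave 9 guidance genes and 1989 genes in all, beside 4 and 801, and the filter of 10 counts in 10 tumors, which tests fewer genes, 439. Among the genes named by the rule, the sign turned with 1 tumor left out in Epha1 (−0.094 to 0.34), Nrp2 (−0.28 to 0.15), Robo2 (−0.10 to 0.57), Plxna4 (−0.38 to 0.069), Sema3e (−0.27 to 0.71) and Epha4 (−0.55 to 0.093), none of them past the threshold. It also turned in several other tested guidance genes, such as Efnb3 (−0.35 to 0.13) and Epha2 (−0.52 to 0.061). Other scalings, DESeq2, no filter, counts summed per mouse and missing values as 0 gave 10 to 14 genes higher and 2 to 4 lower, with Ntn1 lost in most of them and Ephb2 with counts summed per mouse. Sema4f could not be tested where too few tumors reached the minimum count. Genes with few counts, Sema4f among them, could not be compared reliably at this depth.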
